A study of Homo sapiens with 63 samples.

Results

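A set of 8 genes of the actin system were followed in COLO320DM, an established human colorectal adenocarcinoma cell line, under a pair of helicon peptides. They are the thymosins TMSB4X and TMSB10, the actin-binding proteins PFN1, CFL1 and COTL1, the cytoplasmic actins ACTB and ACTG1, and the adhesion linker VCL. All 8 were found by symbol among the 13962 genes of the deposited table, and all 8 passed the filter on low values at every time. The set was selected on measured values of these libraries, in which TMSB4X stood out by its level with Helicon 4 at 10 µM against DMSO at 24 and 48 h. Those contrasts, and the 10 µM contrasts with Helicon 4-neg that share their Helicon 4 libraries, are therefore given for all 8 genes as description, with no test.

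The series title presents Helicon 4 as a peptide directed at the complex of β-catenin and TCF, the transcription complex of the Wnt pathway, and Helicon 4-neg is its companion compound. Polyadenylated RNA was sequenced from 63 libraries in 21 groups of 3. Cells received DMSO, the solvent, or Helicon 4 or Helicon 4-neg at 1, 3 or 10 µM, and were collected at 6, 24 or 48 h. All groups are the same line in culture. The labels number the libraries as biological replicates without saying whether they were separate cultures. The spread within a group may therefore be technical. P-values for fold changes rest on this spread pooled over all groups fitted together, not only on the groups compared.

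Actin monomers and filaments exchange constantly. Thymosins bind monomers and hold them out of filaments, profilin loads monomers for growth at filament ends, and cofilin severs and depolymerises older filaments. Coactosin-like protein binds filaments and is known from biochemical work to compete with cofilin. Vinculin ties filaments to cell adhesions. Free monomer also holds back the cofactors of the transcription factor SRF, and several genes of this system, ACTB, ACTG1 and VCL among them, are known SRF targets.

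The libraries held 16628595 to 32860333 reads in the table, and the 8 genes took 0.718 to 1.08% of them. The Wnt target NKD1 was lower with Helicon 4 than with Helicon 4-neg at 3 µM at all times, at 23.7 against 39.1 at 6 h, 9.74 against 38.8 at 24 h and 9.15 against 38.3 at 48 h. AXIN2, another Wnt target, was at 147 against 177, 78.8 against 193 and 59.8 against 185 at the same times. Of 12 colorectal epithelial markers, 10 were in the table. CDX2 lay at 2234 to 3977, with KRT8 and KRT18 also present, while CDH1, KRT19 and CLDN3 had medians of 0.504, 0.374 and 0.206, and EPCAM did not exceed 4.16. The leukocyte markers (4 of 10 in the table) summed to 16.2 to 24.9 in every library. Libraries of 2 kinds stood apart. First, Helicon 4-neg 3 µM 48 h replicate 3 and Helicon 4-neg 1 µM 48 h replicate 1 were nearest to the 24 h group of Helicon 4-neg at 10 µM, where the other 61 were nearest to a group of their own time, so 48 h calls with these groups are also given without them. Some of the 61 were nearest to another dose or compound of that time. Helicon 4 10 µM 24 h replicate 1, nearest to 3 µM, lay 0.227 from its own group (root mean square on the log2 scale). The libraries that stood apart lay 0.197 and 0.199 from theirs. Second, 15 libraries spread over 10 groups held reads of the collagen gene COL1A2, at 15.3 to 21.5 against 0 to 1.41 in the other 48. In these 10 groups, each of which also held libraries without them, TMSB4X was higher in the collagen libraries in 8, with a median difference of 7.06, and ACTG1 in 9, with a median difference of 159. The part of these reads in the results was examined only by adding a term for them or leaving these libraries out, and leaving them out keeps just 1 library on each side of the compound contrast at 3 µM and 48 h, the Helicon 4-neg one being a library that stood apart.

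Levels are the authors' normalised values, which are whole read counts divided by a scaling factor of each library. Fold changes are on the log2(value + 1) scale, fitted with limma across all genes and called at a Benjamini-Hochberg adjusted p below 0.05. Per kilobase of gene length, ACTG1 was the most abundant of the 8 in DMSO at 24 h, at 1297, followed by TMSB10 at 405 and ACTB at 403. PFN1 lay at 234, CFL1 at 87.2, COTL1 at 68.0 and VCL at 8.05, and TMSB4X lay between COTL1 and VCL. The lengths are those deposited with the values, 5863 bases for CFL1 and 1987 for PFN1, and may not be those of the expressed transcripts. Before division CFL1 lay above PFN1, at 511 against 464, so the order depends on these lengths. Reads of a processed pseudogene may be shared with its parent gene. GENCODE 29 lists 20 pseudogenes named for ACTG1, 10 each for ACTB and PFN1, 8 for CFL1, 6 for TMSB4X and 2 each for TMSB10 and COTL1, so the levels of these genes are uncertain to that extent. The cells were measured in bulk, where fewer expressing cells and less RNA per cell cannot be told apart.

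**Figure D1:**
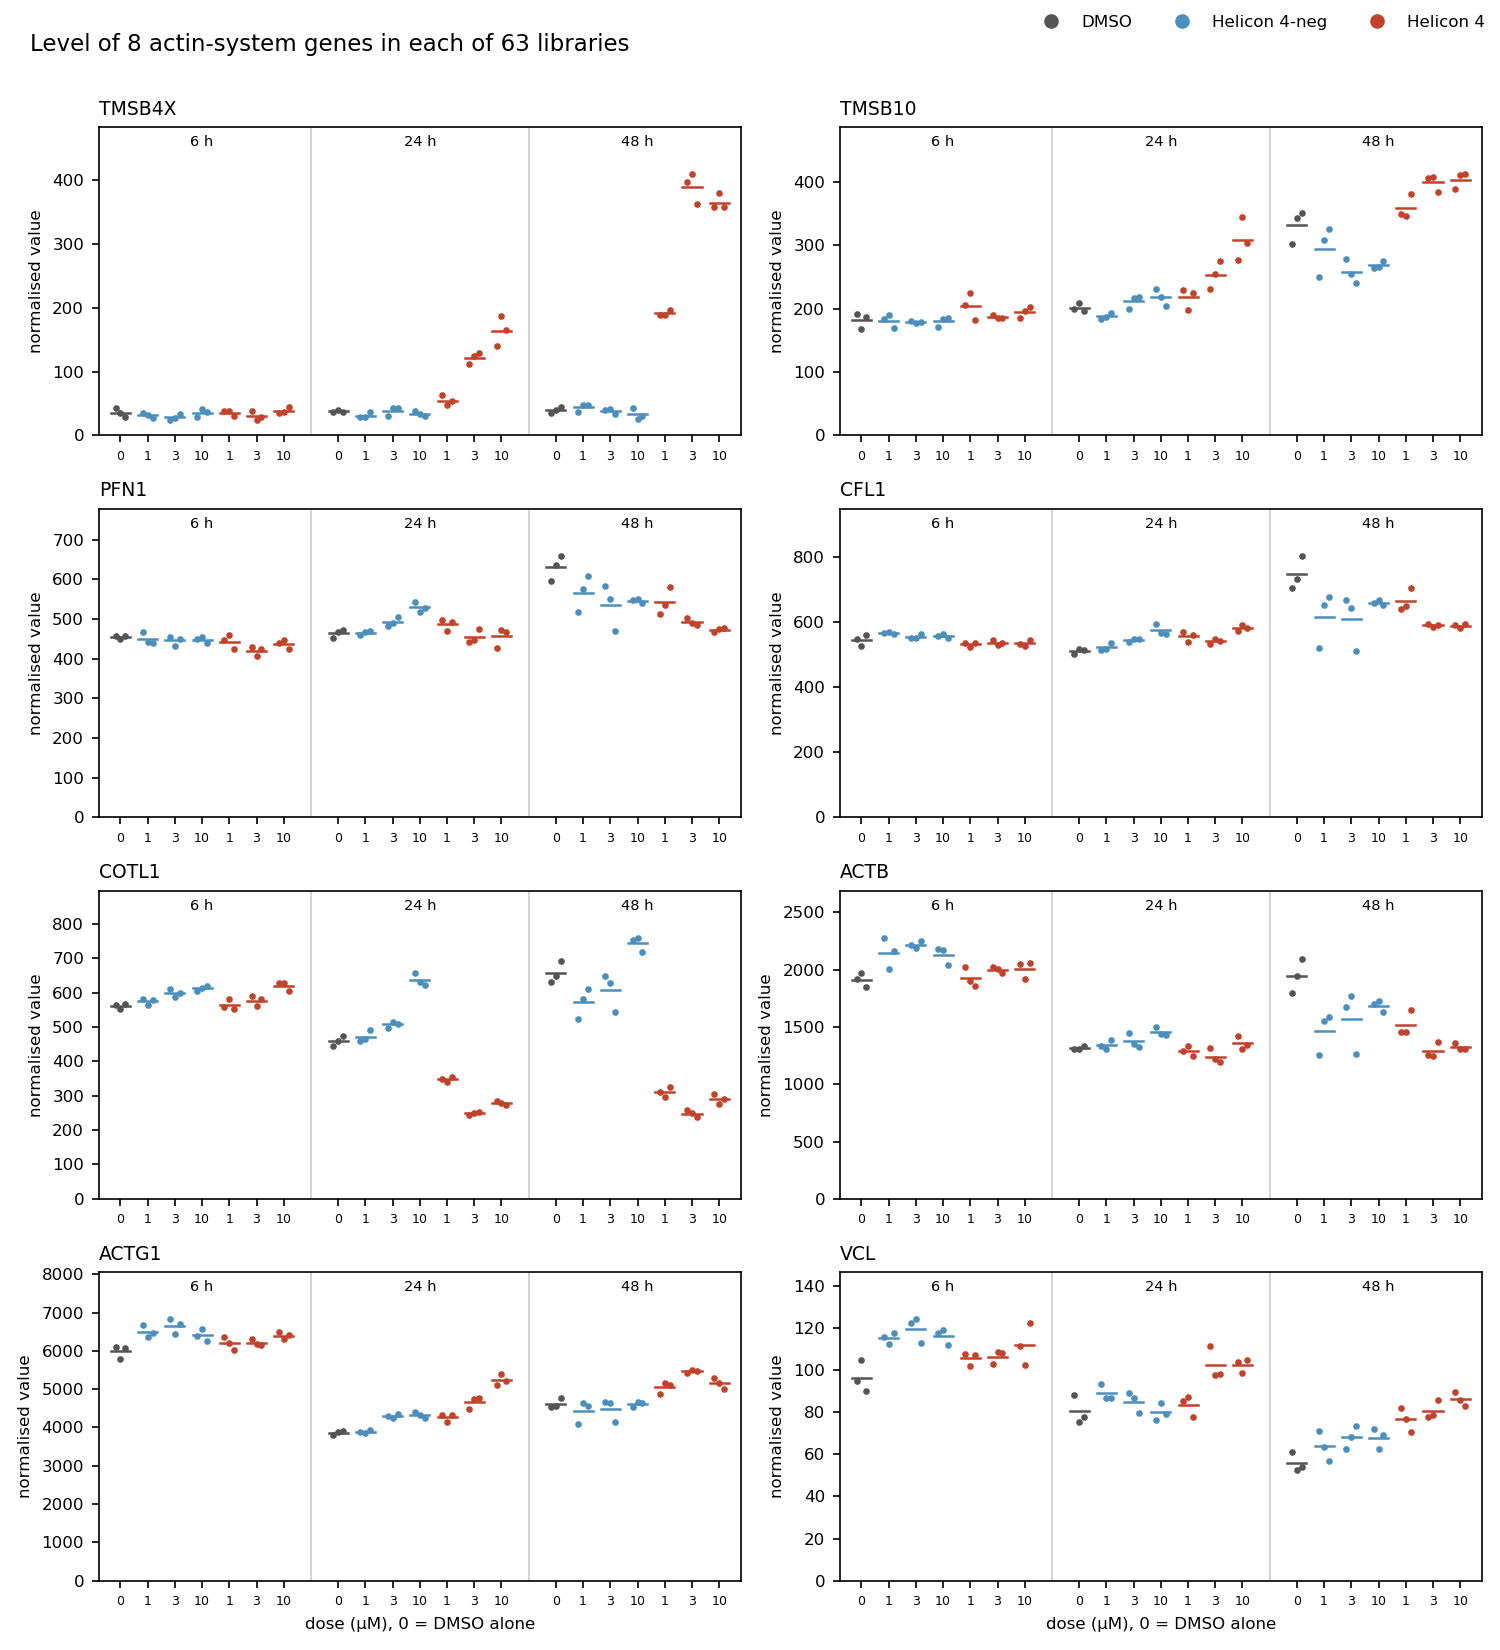
Normalised value (y axis, linear from 0) of each gene in each of the 63 libraries, by dose in µM within 6, 24 and 48 h. Points are libraries, and bars are means of 3. TMSB4X lies between 24.6 and 47.9 in every DMSO and Helicon 4-neg library and reaches 362 to 409 with Helicon 4 at 3 µM and 48 h, where COTL1 is at 237 to 259.

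TMSB4X, the main monomer-sequestering thymosin of most cells, rose with Helicon 4 from 24 h on and more at the higher doses. In DMSO its values were 42.6, 35.5 and 28.7 at 6 h, 36.8, 39.5 and 36.2 at 24 h, and 35.3, 40.1 and 44.6 at 48 h. These ranges overlap, and neither step in DMSO passed the test (log2 0.09, adjusted p = 0.748, and log2 0.09, adjusted p = 0.686). With Helicon 4-neg the 27 libraries lay between 24.6 and 47.9, and none of the 9 contrasts of Helicon 4-neg with DMSO was called for TMSB4X. Without the pair of libraries that stood apart, Helicon 4-neg at 10 µM was called at 48 h, with an unaltered difference of -0.29 (adjusted p = 0.0366 against 0.108). It was also called without Helicon 4-neg 10 µM 48 h replicate 1, at -0.50 (adjusted p = 0.00522).

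At 24 h, Helicon 4 gave TMSB4X values of 62.7, 46.9 and 53.2 at 1 µM, 112, 124 and 130 at 3 µM, and 140, 187 and 165 at 10 µM. No library of one dose overlapped the next. At 48 h the values were 188, 188 and 197 at 1 µM, 396, 409 and 362 at 3 µM, and 357, 379 and 357 at 10 µM. All 9 libraries lay above every library of DMSO and Helicon 4-neg, and the ranges of 3 and 10 µM overlapped. Ordered by group mean, the 15 groups with DMSO, with Helicon 4-neg or at 6 h run from 28.5 to 44.1, and the 6 groups of Helicon 4 at 24 and 48 h follow, from 54.3 to 389. Neighbouring ranges overlap up to Helicon 4 at 1 µM and 24 h, the 16th in order, whose lowest library lay below the highest of Helicon 4-neg at 1 µM and 48 h. From there on neighbours do not overlap, except the last pair, 10 and 3 µM at 48 h.

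The 1 and 3 µM libraries did not enter the contrasts that chose TMSB4X, but the pooled spread includes libraries that did. The gene was chosen for its level with the same compound at 24 and 48 h. P-values for TMSB4X at these times are therefore not independent of the choice. Against Helicon 4-neg at 3 µM, TMSB4X was higher at 24 h by log2 1.64 (SE 0.133), a 3.13-fold ratio of means, with an adjusted p of 3.15e-09. At 48 h it was higher by log2 3.32 (SE 0.125), a 10.2-fold ratio, with an adjusted p of 4.84e-16. At 1 µM the differences were log2 0.79 (adjusted p = 2.09e-04) and 2.10 (adjusted p = 6.49e-12). Without the pair of libraries that stood apart, the 48 h differences were 3.23 and 1.98, both still called. At 6 h no dose was called: the differences were 0.16, 0.10 and 0.12 at 1, 3 and 10 µM, with 95% intervals that ran from -0.22 to 0.48 over the 3 doses. The difference between the compounds at 3 µM grew by log2 1.54 from 6 to 24 h (adjusted p = 1.61e-07) and by a further 1.68 from 24 to 48 h (adjusted p = 6.31e-08). Within Helicon 4, 3 µM exceeded 1 µM by log2 1.16 at 24 h (adjusted p = 3.14e-06) and 1.02 at 48 h (adjusted p = 3e-06).

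Against DMSO, whose 24 and 48 h libraries also entered the choosing contrasts, TMSB4X was higher at 3 µM by log2 1.67 and 3.25 and at 1 µM by 0.51 and 2.23 at 24 and 48 h. All 4 were called (adjusted p from 6.88e-16 to 0.00983). Because they share the DMSO libraries with the choosing contrasts, these calls are not independent evidence of a rise. Without Helicon 4 1 µM 24 h replicate 1, the 24 h difference at 1 µM was 0.41 and no longer past the threshold (adjusted p = 0.0677). At 10 µM, as description, the ratio of means to DMSO was 4.38 at 24 h and 9.11 at 48 h.

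The promoter of TMSB4X is printed because this gene carried the largest difference of the 8, and that of COTL1 further on because it moved the other way. Sequences are RefSeq's, on GRCh38.p14, and 7 of the 8 genes had an entry. The 248 bases that precede the annotated transcripts of TMSB4X lie on the plus strand at chrX:12974860-12975107, with a GC content of 60.9%. Capitals mark the only match to the motifs searched, GGGCGG on the other strand.
TMSB4X: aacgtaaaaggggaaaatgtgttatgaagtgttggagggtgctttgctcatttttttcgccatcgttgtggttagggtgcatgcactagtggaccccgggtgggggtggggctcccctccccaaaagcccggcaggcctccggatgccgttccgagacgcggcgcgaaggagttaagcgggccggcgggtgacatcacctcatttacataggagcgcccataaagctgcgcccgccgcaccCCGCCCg
Each promoter was searched on both strands over the 250 bases before the start. A TCF core, spelled ATCAAAG or else as TTCAAAG, was present in 6.03% of 27303 promoters of this length, and the E-box with the letters CACGTG in 6.49%. The CArG box, the element bound by SRF, was present in 1.14%. The TATA box, searched as TATAAA in full, was present in 11.1% of promoters. The letters CCAAT were present in 33.0% and those of the GC box, GGGCGG, in 42.3%. TMSB4X held no TCF core, E-box, CArG box, TATA box or CCAAT box in this window.

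TMSB10, the second thymosin, rose less and on a level that itself rose in culture. In DMSO its values were 192, 167 and 187 at 6 h, 199, 208 and 196 at 24 h, and 302, 343 and 351 at 48 h, and the last step was log2 0.72 (adjusted p = 1.36e-11). Time in culture and day of harvest cannot be told apart in this step. With Helicon 4 at 3 µM the values were 231, 255 and 275 at 24 h and 406, 407 and 384 at 48 h. With Helicon 4-neg at 3 µM they were 199, 217 and 219, then 279, 254 and 241. The ranges of the compounds did not overlap at either time. TMSB10 was higher by log2 0.26 (adjusted p = 0.00634) and 0.63 (adjusted p = 1.49e-07) at 3 µM and by 0.21 (adjusted p = 0.0379) and 0.29 (adjusted p = 0.00328) at 1 µM, and not called at 6 h. The 1 µM call at 24 h was lost without any one of 5 of its 6 libraries, all but Helicon 4 1 µM 24 h replicate 2 (log2 0.17 to 0.23, adjusted p from 0.0608 to 0.164). With the libraries that stood apart left out, the 48 h differences were 0.58 at 3 µM and 0.17 at 1 µM, both called.

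The compounds moved TMSB10 to opposite sides of DMSO at 3 µM and 48 h. At 1 µM and 48 h neither was called: 0.11 with Helicon 4 (adjusted p = 0.244) and -0.18 with Helicon 4-neg (adjusted p = 0.0758). Helicon 4 at 3 µM was above DMSO by log2 0.27 (adjusted p = 0.00341), and Helicon 4-neg was below it by 0.36 at 3 µM and by 0.30 at 10 µM, as differences of -0.36 (adjusted p = 0.00142) and -0.30 (adjusted p = 0.00746). These contrasts share the DMSO libraries. The 3 µM value of Helicon 4-neg was -0.32 (adjusted p = 2.14e-04) without the libraries that stood apart. The increase of the compound difference at 3 µM from 24 to 48 h was log2 0.37 (adjusted p = 0.011). It was lost without Helicon 4 3 µM 24 h replicate 1, at 0.31 (adjusted p = 0.0581).

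COTL1, the filament-binding coactosin-like protein, fell with Helicon 4. At 24 h its values were 350, 339 and 355 at 1 µM, 244, 249 and 253 at 3 µM and 284, 278 and 273 at 10 µM, against 445, 460 and 475 in DMSO. With Helicon 4-neg they were 459, 464 and 490 at 1 µM, 498, 514 and 510 at 3 µM and 657, 630 and 622 at 10 µM. Every Helicon 4 library lay below every DMSO library, and Helicon 4-neg at 3 and 10 µM lay above them. At 48 h, Helicon 4 gave 311, 296 and 326, then 259, 249 and 237, then 304, 277 and 290 at 1, 3 and 10 µM, against 631, 648 and 692 in DMSO. The level was lowest at 3 µM at both times, and the ranges of 3 and 10 µM did not overlap.

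Against Helicon 4-neg at 3 µM the difference for COTL1 at 24 h was log2 -1.03 (SE 0.0352), with an adjusted p of 5.51e-15. At 48 h it was log2 -1.28 (SE 0.0614), with an adjusted p of 3.74e-14. At 1 µM it was -0.44 (adjusted p = 2.45e-08) and -0.87 (adjusted p = 1.19e-10). The 48 h values were -1.36 and -0.94 when the libraries that stood apart were left out. At 6 h the 3 differences lay between -0.05 and 0.02, and none was called. The change in the compound difference at 3 µM was -0.97 from 6 to 24 h (adjusted p = 1.4e-17) and -0.26 from 24 to 48 h (adjusted p = 0.00353). The latter was -0.043 without the COL1A2 libraries, where 1 library of each compound remains at 3 µM and 48 h.

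The companion compound also changed COTL1. Helicon 4-neg at 10 µM exceeded DMSO at 24 h by log2 0.47 (adjusted p = 2.3e-07), with values of 622 to 657 against 445 to 475, and this call held in every alternative. At 48 h, Helicon 4-neg was higher than DMSO at 10 µM by 0.18 (adjusted p = 0.0441) and lower at 1 µM by -0.20 (adjusted p = 0.0205). The 10 µM call was lost without any one of 5 libraries, all but DMSO 48 h replicate 3 (adjusted p from 0.0621 to 0.135). It also missed the threshold by edgeR (adjusted p = 0.0886), with median centring (adjusted p = 0.0936) and with the replicate number as a block (adjusted p = 0.0612). The 1 µM call was lost without DMSO 48 h replicate 3 or Helicon 4-neg 1 µM 48 h replicate 1 (-0.16 and -0.14). Without the COL1A2 libraries the 1 µM difference was -0.16. At 6 h, Helicon 4 at 10 µM was itself higher than DMSO, at 629, 627 and 604 against 565, 551 and 568, by log2 0.14 (adjusted p = 0.00206). Helicon 4-neg at the same dose gave 605, 613 and 620, a difference of 0.13 that missed the threshold (adjusted p = 0.073). In DMSO, COTL1 was lower at 24 h than at 6 h by log2 0.29, a difference of -0.29 (adjusted p = 3.85e-06), and higher at 48 h than at 24 h by 0.51 (adjusted p = 2.16e-13).

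The COTL1 promoter is on the minus strand at chr16:84618079-84618328, with a GC content of 73.2%. It held 3 CCAAT matches and 4 GGGCGG matches, some of which overlap, and none of the TCF core, E-box, CArG box or TATA box. Capitals mark CCAAT on either strand.
COTL1: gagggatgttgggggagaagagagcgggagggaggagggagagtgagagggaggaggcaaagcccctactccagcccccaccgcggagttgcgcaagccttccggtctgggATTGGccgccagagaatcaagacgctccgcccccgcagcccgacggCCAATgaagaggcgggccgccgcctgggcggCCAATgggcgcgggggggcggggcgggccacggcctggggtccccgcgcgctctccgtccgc
TMSB4X had no CCAAT match in its window, nor had TMSB10 or PFN1, while CFL1 and VCL had 2 each and ACTG1 had 1.

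**Figure D2:**
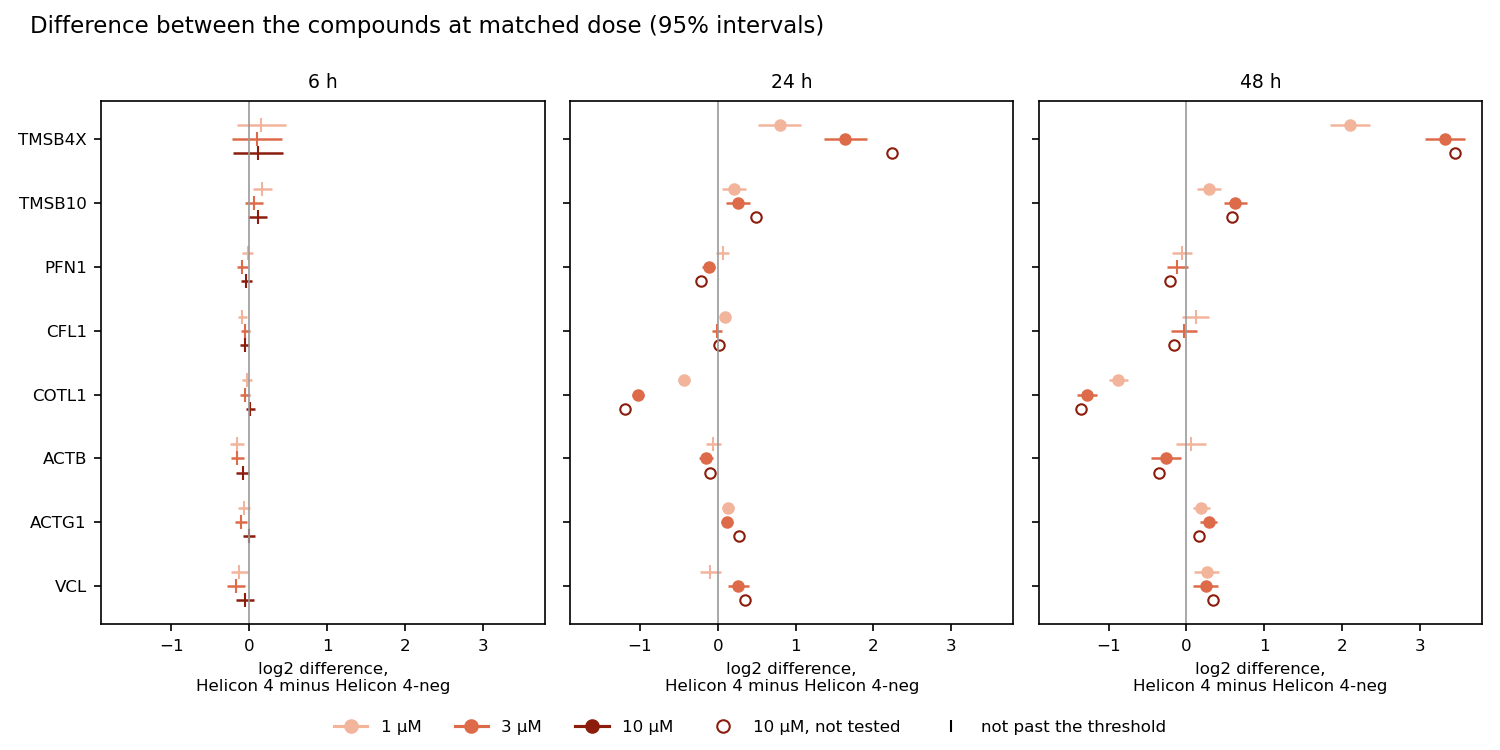
Log2 difference between Helicon 4 and Helicon 4-neg at the same dose (x axis) for each gene at 6, 24 and 48 h, by dose. Lines are 95% intervals of the limma fit, filled points passed the threshold, vertical ticks did not, and open circles (10 µM at 24 and 48 h) were not tested. TMSB4X reaches 3.32 and COTL1 -1.28 at 3 µM and 48 h, while at 6 h none of the 8 genes is called.

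PFN1, which delivers monomers to growing ends, and CFL1, which severs filaments, changed little between the compounds. PFN1 values at 3 µM and 24 h were 442, 446 and 474 with Helicon 4 and 482, 490 and 506 with Helicon 4-neg, ranges that did not overlap. The difference was log2 -0.12 (adjusted p = 0.021). It missed the threshold with median centring and without Helicon 4 3 µM 24 h replicate 1 or 2 or Helicon 4-neg 3 µM 24 h replicate 3 (adjusted p from 0.075 to 0.0919). At 48 h the differences for PFN1 were -0.12 at 3 µM (95% interval -0.25 to 0.02) and -0.06 at 1 µM (-0.19 to 0.07), not called. Without the libraries that stood apart they were -0.20 (adjusted p = 3.89e-04) and -0.12 (adjusted p = 0.0324), both called. CFL1 was called between the compounds only at 1 µM and 24 h, by log2 0.09 (adjusted p = 0.0398), of all tested contrasts of the compounds at matched dose. That call was lost without any one of 4 libraries, Helicon 4 replicates 1 and 3 and Helicon 4-neg replicates 1 and 2 (adjusted p from 0.114 to 0.166), with robust empirical Bayes and with 1 fit of all 63 libraries. At 3 µM and 48 h CFL1 differed by -0.03 (95% interval -0.21 to 0.14), and by -0.15 (adjusted p = 0.00479) without the libraries that stood apart.

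Both genes rose in DMSO from 24 to 48 h, PFN1 by log2 0.44 (adjusted p = 1.14e-10) and CFL1 by 0.54 (adjusted p = 1.9e-11). From 6 to 24 h the differences were 0.03 (adjusted p = 0.73) and -0.09 (adjusted p = 0.278), not called, though the latter was called without the libraries that stood apart (adjusted p = 0.0319). DMSO at 48 h gave PFN1 values of 597, 638 and 659, against 502, 489 and 484 with Helicon 4 at 3 µM and 547, 550 and 541 with Helicon 4-neg at 10 µM. CFL1 lay at 705, 732 and 803 in DMSO and at 595, 585 and 590 with Helicon 4 at 3 µM. Relative to DMSO, Helicon 4 at 3 µM was lower by -0.36 for PFN1 (adjusted p = 3.75e-05) and by -0.34 for CFL1 (adjusted p = 0.00118). Helicon 4-neg at 3 µM was also lower, by -0.24 (adjusted p = 0.00685) and -0.30 (adjusted p = 0.00894). With both libraries that stood apart left out these were -0.15 (adjusted p = 0.0158) and -0.19 (adjusted p = 0.00384), both called. With Helicon 4-neg 3 µM 48 h replicate 3 alone left out, they became -0.15 (adjusted p = 0.0688) and -0.19 (adjusted p = 0.0874), and without DMSO 48 h replicate 3 the CFL1 value was -0.25 (adjusted p = 0.0586).

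The cytoplasmic actins, which differ by a few residues near the amino terminus, parted with Helicon 4. ACTG1 at 24 h was 4468, 4744 and 4766 with Helicon 4 at 3 µM and 4302, 4245 and 4338 with Helicon 4-neg at 3 µM. ACTB in the same libraries was 1312, 1217 and 1191 against 1446, 1354 and 1326. Neither pair of ranges overlapped, and the genes lay on opposite sides. At 48 h ACTG1 was 5415, 5508 and 5467 against 4674, 4647 and 4139, and ACTB was 1255, 1248 and 1370 against 1672, 1768 and 1260. The library at 4139 and 1260 is one of those that stood apart, and its ACTB value lay within the Helicon 4 range.

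At 3 µM ACTG1 was higher than with Helicon 4-neg by log2 0.12 at 24 h (adjusted p = 0.0198) and 0.29 at 48 h (adjusted p = 8.1e-05), and at 1 µM by 0.13 (adjusted p = 0.017) and 0.19 (adjusted p = 0.00715). ACTB was lower at 3 µM by -0.15 at 24 h (adjusted p = 0.00915) and -0.27 at 48 h (adjusted p = 0.0216), and at 1 µM the differences were -0.06 and 0.06, not called. Without the libraries that stood apart, the 48 h values at 3 µM were 0.23 for ACTG1 and -0.41 for ACTB (adjusted p = 4.55e-07). Leaving out 1 library ended several of these calls. For ACTB at 48 h these were Helicon 4 replicates 1 and 2 and Helicon 4-neg replicates 1 and 2 (-0.17 to -0.25, adjusted p from 0.0664 to 0.159), and robust empirical Bayes ended it as well (adjusted p = 0.0565). For ACTB at 24 h they were Helicon 4 replicate 3 and Helicon 4-neg replicate 1 (-0.12 and -0.11), as well as 1 fit of all 63 libraries (adjusted p = 0.084). For ACTG1 at 24 h and 3 µM they were Helicon 4 replicates 2 and 3 and Helicon 4-neg replicate 2 (0.10 to 0.11), as well as median centring, and at 1 µM Helicon 4 replicates 1 and 3 and Helicon 4-neg replicates 1 and 2 (0.12 to 0.13, adjusted p from 0.0521 to 0.0753). The 48 h calls of ACTG1 held in every alternative. For ACTB at 3 µM and 48 h the difference was -0.006 without the COL1A2 libraries. That fit keeps 1 library on each side, the Helicon 4-neg one being a library that stood apart.

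The ratio of ACTG1 to ACTB within a library does not depend on library scaling. At 6 h the group means lay between 3.00 and 3.22. At 48 h the ratio was 4.31, 4.41 and 3.99 with Helicon 4 at 3 µM against 2.80, 2.63 and 3.28 with Helicon 4-neg, means of 4.24 ± 0.221 and 2.90 ± 0.340 (SD, n = 3). In DMSO it was 2.53, 2.34 and 2.29, so that the Helicon 4 libraries lay highest, the Helicon 4-neg libraries between and the DMSO libraries lowest. The library at 3.28 is the one that stood apart, and the other pair also lay below every Helicon 4 library. At 24 h the means were 3.77 and 3.13 at 3 µM and 3.31 and 2.90 at 1 µM, and at 10 µM and 6 h they were 3.19 and 3.01. The ranges of the compounds did not overlap in these 4 comparisons, and the exact permutation test, two-sided, gave p = 0.1 for each, the smallest value that 3 against 3 libraries allow. The ranges overlapped at 1 µM and 48 h, with means of 3.33 and 3.05, and at 3 and 1 µM and 6 h (p = 0.2 for each by the same exact test). A change in the ratio shows unequal change of the transcripts and does not say which one moved.

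**Figure D3:**
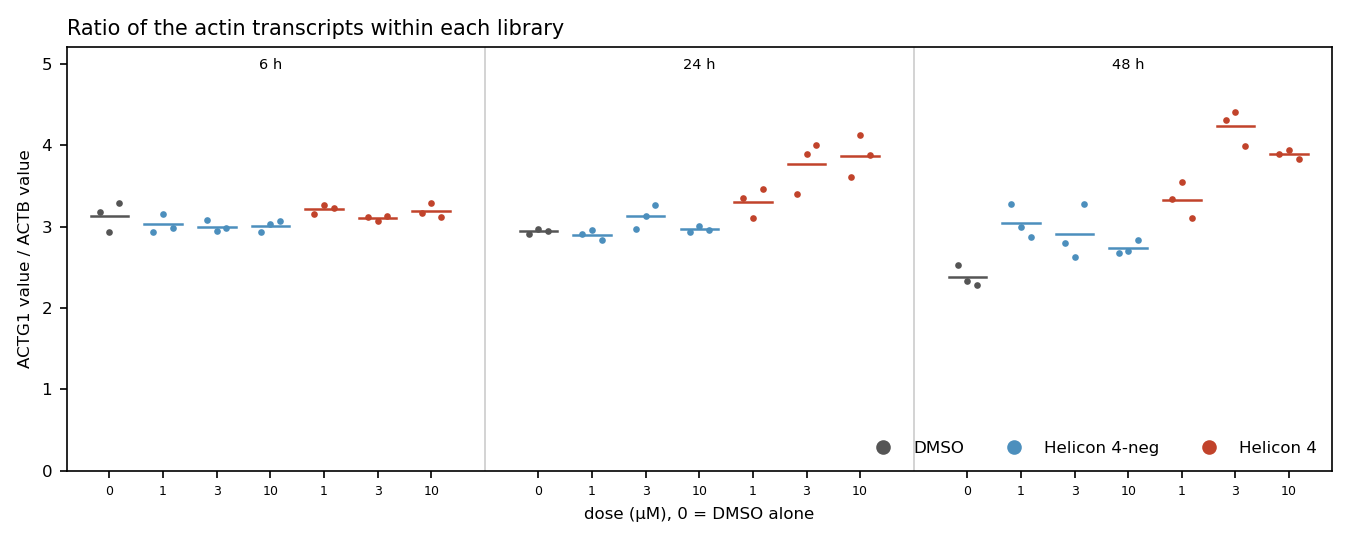
Ratio of the ACTG1 value to the ACTB value (y axis, from 0) in each library, by dose in µM within 6, 24 and 48 h, with bars for the mean of 3. At 6 h all group means lie between 3.00 and 3.22, and at 48 h the Helicon 4 3 µM libraries lie between 3.99 and 4.41 and the DMSO libraries between 2.29 and 2.53.

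Both actins also changed with time in DMSO. ACTB went from 1921, 1972 and 1846 at 6 h to 1305, 1303 and 1332 at 24 h and back to 1793, 1948 and 2089 at 48 h. The steps were log2 -0.54 (adjusted p = 6.73e-08) and 0.56 (adjusted p = 2.36e-09). ACTG1 fell by log2 0.63, a change of -0.63 (adjusted p = 2.44e-17), and then rose by 0.26 (adjusted p = 5.6e-07). At 48 h ACTB was below DMSO with Helicon 4 at 3 µM by -0.59 (adjusted p = 1.16e-05) and at 1 µM by -0.35 (adjusted p = 0.00426), and with Helicon 4-neg at 1 µM by -0.41 (adjusted p = 0.00378) and at 3 µM by -0.32 (adjusted p = 0.0138). Without the libraries that stood apart the values of Helicon 4-neg were -0.31 (adjusted p = 5.24e-04) and -0.17 (adjusted p = 0.0249), both called. The 3 µM call was lost without DMSO 48 h replicate 3 (-0.27, adjusted p = 0.0765) or without Helicon 4-neg 3 µM 48 h replicate 3 alone (-0.17, adjusted p = 0.134). ACTG1 was above DMSO with Helicon 4 at 3 µM at 24 h by 0.27 (adjusted p = 9.42e-06) and at 48 h by 0.24 (adjusted p = 4.2e-04). With Helicon 4-neg at 24 h it was above DMSO by 0.16 at 10 µM (adjusted p = 0.0128) and 0.15 at 3 µM (adjusted p = 0.0432), and ACTB by 0.15 at 10 µM (adjusted p = 0.0369). The ACTG1 call at 3 µM (adjusted p from 0.0871 to 0.205) and the ACTB call (adjusted p from 0.058 to 0.146) were each lost without any one of their 6 libraries. The ACTG1 call at 10 µM was lost without DMSO 24 h replicate 1 or Helicon 4-neg 10 µM 24 h replicate 1 (adjusted p = 0.0692 and 0.0598). At 6 h, Helicon 4-neg at 3 µM exceeded DMSO for ACTB by 0.21 (adjusted p = 0.012) and for ACTG1 by 0.15 (adjusted p = 0.0407). These 6 h calls were lost without Helicon 4-neg 3 µM 6 h replicate 1 or 3 (ACTB, adjusted p = 0.0928 and 0.0709) or without either of those or DMSO 6 h replicate 1 or 2 (ACTG1, adjusted p from 0.0648 to 0.255).

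ACTG1 was the only one of the 7 genes with a promoter entry that held a CArG box, at 94 to 85 bases before the start, and the only one with an E-box. The 30 bases around the CArG box, in capitals, are on the minus strand at chr17:81512874-81512903, and 18 of them lie in an exon of 1 of the 17 ACTG1 transcripts in GENCODE 29.
ACTG1: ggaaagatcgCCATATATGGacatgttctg
A match describes these letters and does not show that SRF binds there.

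VCL, the filament-to-adhesion linker, fell in DMSO over time. It was higher than DMSO with Helicon 4 at 3 µM at 24 h and at 1 and 3 µM at 48 h. Both compounds also exceeded DMSO in some contrasts at 6 h, and Helicon 4-neg did so in some at 48 h. DMSO values were 94.6, 105 and 89.9 at 6 h, 88.1, 75.6 and 77.7 at 24 h, and 61.1, 52.6 and 54.0 at 48 h. The steps were log2 -0.26 (adjusted p = 0.00565) and -0.52 (adjusted p = 1.85e-08). The first was lost without DMSO 24 h replicate 2 or DMSO 6 h replicate 2 (-0.22 and -0.20, adjusted p = 0.0517 and 0.0633). Helicon 4 at 3 µM gave 111, 97.5 and 98.2 at 24 h and 77.7, 78.6 and 86.0 at 48 h, all above DMSO, and Helicon 4-neg at 3 µM gave 89.1, 86.6 and 79.6, then 62.4, 68.4 and 73.3. VCL was higher with Helicon 4 than with Helicon 4-neg at 3 µM by log2 0.26 at 24 h (adjusted p = 0.00222) and 0.25 at 48 h (adjusted p = 0.0106), and at 1 µM by 0.26 at 48 h (adjusted p = 0.0108), while at 1 µM and 24 h the difference of -0.09 was not called (adjusted p = 0.301). The 48 h calls were each lost without one of 2 libraries: at 3 µM Helicon 4 replicate 3 or Helicon 4-neg replicate 1 (0.20 and 0.19), at 1 µM Helicon 4 replicate 1 or Helicon 4-neg replicate 3 (0.21 and 0.18). Over all 18 alternatives, 3 changed the 3 µM call at 48 h, and its difference fell as low as 0.084. Without the libraries that stood apart the 48 h differences were 0.30 at 3 µM (adjusted p = 8.45e-04) and 0.34 at 1 µM (adjusted p = 3.97e-04).

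Against DMSO, VCL was higher with Helicon 4 at 48 h by log2 0.53 at 3 µM (adjusted p = 4.19e-06) and 0.45 at 1 µM (adjusted p = 7.44e-05). Helicon 4-neg at 3 µM was also higher, by 0.28 (adjusted p = 0.0107), and this call was lost without DMSO 48 h replicate 2 or Helicon 4-neg 3 µM 48 h replicate 3 (0.24 and 0.22), though not without both libraries that stood apart (adjusted p = 0.025). Helicon 4-neg at 10 µM and 48 h was higher by 0.28 (adjusted p = 0.0166). At 6 h Helicon 4 at 10 µM exceeded DMSO by 0.21 (adjusted p = 0.0108). Helicon 4-neg at 6 h did so by 0.31 at 3 µM (adjusted p = 0.00733) and 0.27 at 10 µM (adjusted p = 0.0313). Of 18 alternatives, 5, 2, 1 and 8 changed these calls, in the order given. The compound difference at 3 µM changed by 0.43 from 6 to 24 h (adjusted p = 6.06e-04) and by -0.02 from 24 to 48 h (adjusted p = 0.942). At 6 h Helicon 4 lay below Helicon 4-neg, with 103, 108 and 108 against 122, 124 and 113 at 3 µM, a difference of -0.17 that was not called (adjusted p = 0.14).

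Counted over the 8 genes, the contrast of the compounds called 4 higher and 3 lower at 3 µM and 24 h, where 42.9% of all genes tested were called, and 4 higher and 2 lower at 3 µM and 48 h, where 52.5% were. At 1 µM it called 4 higher and 1 lower at each time, against 25.5% of all genes at 24 h and 35.9% at 48 h. Without the libraries that stood apart the 48 h counts became 8 at 3 µM and 6 at 1 µM, where 6 and 5 had been called. In that fit 26.7% of all genes were called higher and 26.7% lower at 3 µM, and the share at 1 µM was not computed. At 6 h it called 0 of 8 at 10, 3 and 1 µM, against 8.42, 1.64 and 0.0613% of all genes. By edgeR on the recovered reads the 6 h contrasts called 0 of the 8 as well, against 1085, 201 and 10 of all genes at 10, 3 and 1 µM. By DESeq2 they called ACTB at 3 and at 1 µM and CFL1 at 1 µM, all lower. The share of all genes that DESeq2 called was not computed. At an unadjusted p under 0.05 the limma contrasts held 1, 4 and 4 of the 8 at 10, 3 and 1 µM, where 20.3, 14.2 and 14% of all genes tested had one.

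Against DMSO, Helicon 4 at 3 µM called 5 higher and 1 lower at 24 h (45.2% of all genes) and 4 higher and 4 lower at 48 h (59.2%). At 1 µM it called 3 higher and 1 lower (18.9%), then 2 higher and 3 lower (40.9%). At 6 h it called 2 higher at 10 µM (13.7%), 1 lower at 3 µM (9.17%) and 0 at 1 µM (12.7%). Helicon 4-neg called 5 higher at 10 µM (11.7%), 2 higher at 3 µM (2.36%) and 0 at 1 µM (0%) at 24 h. At 48 h it called 2 higher and 2 lower (19% of all genes), 1 higher and 4 lower (28.3%) and 3 lower (24.3%) at 10, 3 and 1 µM. At 6 h it called 1 higher (0.26%), 3 higher (1.75%) and 0 (0.0306%) at the same doses. In DMSO, 4 of the 8 were lower at 24 h than at 6 h, where 20.4% of all genes were called, and 6 were higher and 1 lower at 48 h than at 24 h, where 50.9% were. The dose step from 1 to 3 µM of Helicon 4 called 4 higher and 1 lower at 24 h (20.1%), 1 higher and 1 lower at 48 h (22.5%) and 0 at 6 h (0.345%). The change of the compound difference at 3 µM called 3 higher and 1 lower from 6 to 24 h (31.9%) and 3 higher and 1 lower from 24 to 48 h (14%). Where limma called 0, the genes with an unadjusted p under 0.05 numbered 2 for Helicon 4 at 1 µM and 6 h against DMSO, 3 and 2 for Helicon 4-neg at 1 µM at 6 and 24 h, and 1 for the dose step at 6 h. Of all genes tested, 28.8, 12.3, 5.12 and 10% had such a p in these contrasts. The quasi-likelihood test of edgeR called 0 of the 8 in each of these contrasts, against 1613, 4, 0 and 41 of all genes tested. DESeq2 called 1, 3, 0 and 0 of the 8, with no share over all genes computed.

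Over the 21 group means, and as description only, TMSB4X and COTL1 ran opposite with a Pearson correlation of -0.88, while TMSB4X and TMSB10 ran together at 0.82. PFN1 and VCL gave -0.93 and the actins 0.77. The points share normalisation and the groups share dose and time. The genes whose group means were most like TMSB4X among 9157 genes were CRYL1 (0.988), EPHX2 (0.987), TSPAN8 (0.984), DOK4 (0.981) and FBXW7 (0.981). EPHX2 is the soluble epoxide hydrolase, TSPAN8 a tetraspanin of epithelial membranes and FBXW7 a substrate receptor of a ubiquitin ligase. At 3 µM and 48 h, groups that entered the correlation, TSPAN8 was 51.0 with Helicon 4 and 15.1 with Helicon 4-neg, and FBXW7 was 61.3 and 17.3.

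The wider actin system was read from 6 lists in the contrast of the compounds at 3 µM and 48 h, leaving the 8 genes out of their lists. The genes named from each list are those with the smallest p in this contrast, so their values in it are a description. Over all genes tested, 25.9% were called higher and 26.6% lower. Among genes for monomer binding and filament severing, 9 of 18 were higher and 2 lower, with a median log2 difference of 0.147 against 0.004 over all genes. GSN, which encodes gelsolin, a severing and capping protein, was 84.9 with Helicon 4 and 14.4 with Helicon 4-neg, a difference of log2 2.48, and of 2.44 without the libraries that stood apart. GSN was 24.4 and 10.8 at 24 h, log2 1.11 (adjusted p = 1.36e-11), and at 6 h the difference of -0.12 was not called. In the same list CORO1B, a coronin, was higher by 0.65 and CAPG, a capping protein of the gelsolin family, by 1.31.

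Of the cross-linkers and membrane linkers, 12 of 18 were higher and 2 lower, with a median of 0.275. PLS1, a fimbrin of intestinal microvilli, was 106 against 49.3, log2 1.09, LASP1 was higher by 0.48 and TAGLN2, a transgelin, was lower by -0.38. Of the tropomyosins, non-muscle myosin II chains and cappers, 9 of 21 were higher and 5 lower. The light chains MYL6 and MYL12B were higher by 0.70 and 0.41, and the tropomyosin TPM4 was lower by -0.38.

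Of the Arp2/3 complex and its activators, 4 of 20 were higher and 7 lower. The subunit ARPC1A was lower by -0.52 and the WAVE complex member BRK1 higher by 0.40, and ABI2, also of the WAVE complex, by 0.34. Of the focal adhesion genes, 6 of 18 were higher and 4 lower, with LIMS1 higher by 0.53, PARVA by 1.01 and the kindlin FERMT1 lower by -0.90. Of the SRF and MRTF target genes, 8 of 18 were higher and 3 lower, with a median of 0.124. JUNB was higher by 0.64, FOS by 1.04 from a mean of 0.205 to 1.49, and SRF itself was lower by -0.37.

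With the libraries that stood apart left out, the counts higher and lower were 10 and 1 of 18 for monomer binding and severing, 11 and 3 of 18 for the cross-linkers, and 9 and 8 of 21 for the tropomyosins, myosins and cappers. They were 6 and 8 of 20 for the Arp2/3 list, 6 and 4 of 18 for focal adhesion, and 7 and 5 of 18 for the SRF and MRTF targets. The medians of the monomer, cross-linker and SRF lists were then 0.195, 0.275 and 0.007, against 0.147, 0.275 and 0.124 with all libraries. Over all 13445 genes tested in that fit, 26.7% were called in each direction, with a median of 0.006.

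**Figure D4:**
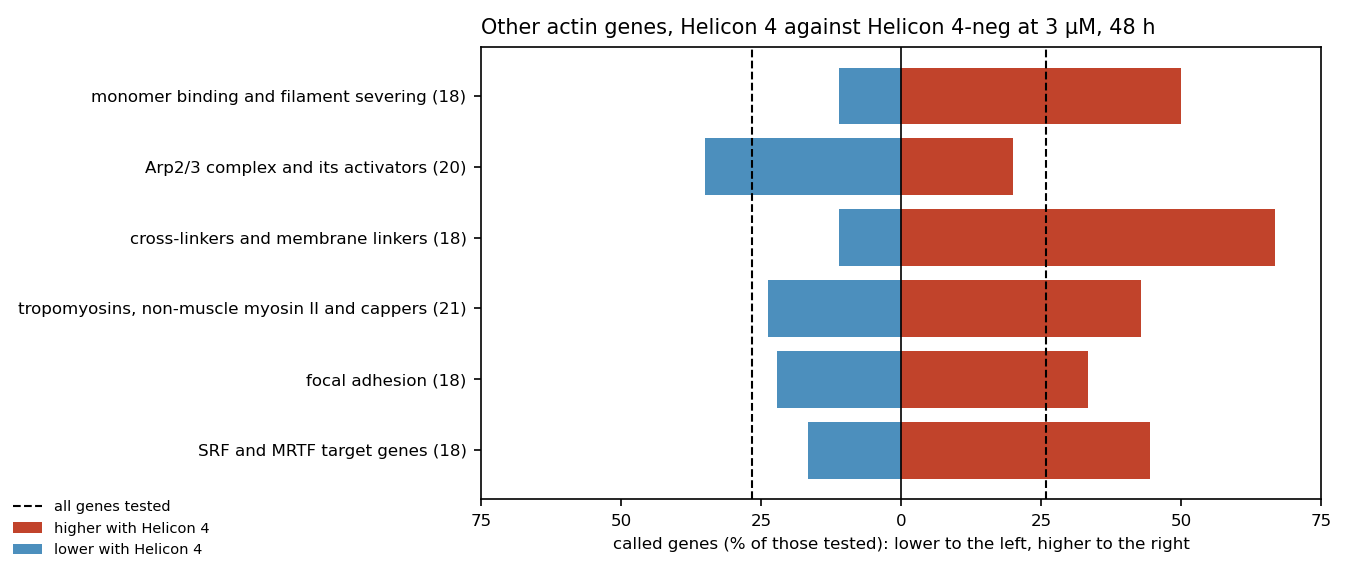
Percent of tested genes in each of 6 actin lists (number tested in brackets, the 8 genes left out) called higher (right) or lower (left) with Helicon 4 than with Helicon 4-neg at 3 µM and 48 h, with dashed lines for all genes tested. The cross-linkers and membrane linkers show 12 of 18 higher, and the Arp2/3 list more genes lower (7) than higher (4).

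Markers of other cells moved with some of these groups. The fibroblast list (8 of 10 in the table) was mostly VIM, the intermediate filament vimentin, and summed to 363 to 395 with Helicon 4 at 3 µM at 24 h against 258 to 277 with Helicon 4-neg, and at 48 h to 456 to 543 against 276 to 455. DMSO at 48 h spanned 442 to 582, where TMSB4X was 35.3 to 44.6. Of the other members of this list, COL1A1, COL3A1 and COL1A2 reached 27.7, 24.3 and 21.5 in their highest libraries. PDGFRA, PDGFRB and THY1 did not exceed 3.72, and DCN did not exceed 1.12. In the neuroendocrine list (6 of 8 in the table) the highest medians were 13.0 for ENO2 and 7.48 for SYP. This list summed to 35.6 to 36.2 with Helicon 4 at 3 µM at 48 h against 24.4 to 27.0 with Helicon 4-neg. The colorectal epithelial list was mostly CDX2, with a median of 3327 against 161 for KRT8, the next highest. A sum does not show whether its other members moved. The list was lower with Helicon 4 than with Helicon 4-neg at 3 µM. It summed to 2814 to 2854 against 3554 to 3644 at 24 h, and to 2866 to 2908 against 3649 to 3956 at 48 h. In DMSO it summed to 3571 to 3730 and 4100 to 4321 at these times, and neither set of ranges overlapped that of Helicon 4. The part of these shifts in the results above was not tested.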

How the data were processed

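RNA was sequenced from 63 COLO320DM libraries in 21 groups of 3, with stranded TruSeq libraries after poly(A) enrichment, per the labels' protocols. The build GRCh38 and the tools edgeR 4.0.2, featureCounts, Subread 2.4.2, STAR 2.7.7a and Trimmomatic 0.39 are listed in the submitters' processing notes. How genes were filtered, which annotation was used and whether strand was used are not given in the sources used here. The deposited signal values are gene counts that the authors divided by a scaling factor of each library, as read from the values themselves: one step per library gave whole reads for 100% of values within a tolerance of 0.01. Totals of recovered reads ran from 16628595 to 32860333 with a median of 22123187, and 1 read was worth 0.0301 to 0.0622. Copies made by PCR are counted, so read numbers cover counting error only. All sample columns were used. The 63 replicate pairs held 0 identical libraries.

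The values were tested as log2(value + 1) with limma 3.58.1 in R 4.3.3, with 1 fit per time (21 libraries each) and 1 fit of all 63 for DMSO between times and for the change of the compound difference. Genes that reached 0.5 in 3 or more libraries were kept, which left 13057, 13213 and 13478 genes at 6, 24 and 48 h and 13782 in the fit of 63. P-values were adjusted by Benjamini-Hochberg over all genes tested, with a threshold of 0.05 and 95% intervals. The procedure was tested on simulated counts at the sizes of the 3 µM contrasts: of 100 genes changed by log2 1, 99, 100 and 100% were recovered at 6, 24 and 48 h. False calls made up 5.2, 1.8 and 4% of all calls. The simulation gave every gene the same dispersion, changed few genes and held no library that stood apart. The data differ in each of these, so the rates check the procedure and do not describe the contrasts. On the recovered reads, the quasi-likelihood test of edgeR 4.0.16 called 7073 of 13478 genes between the compounds at 3 µM and 48 h, where limma called 7075, and 5780 against 5669 at 24 h. The ratio of the actins was compared by an exact permutation test.

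The 8 genes and the lists were chosen with earlier results of these data known. Helicon 4 at 10 µM at 24 and 48 h was not tested because it entered that choice. Named besides the 8 genes were the 3 genes of each actin list called with the smallest p between the compounds at 3 µM and 48 h, the 5 genes most correlated with TMSB4X over the group means (mean log2(value + 1) of at least 3), and AXIN2 and NKD1 as a check of the compound. One further list of actin genes is not reported here. Alternatives were edgeR, DESeq2 1.42.0, recomputed TMM factors, median centring, no filter, a pseudocount of 0.1, robust empirical Bayes, a block for the replicate number, each library left out, and 1 fit of all 63 libraries. After seeing the data, fits were added without the 2 libraries that stood apart, with a term for libraries with COL1A2 above 5, and without those libraries.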

Additional observations from a re-analysis of the deposited data

Results flagged for a closer look

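In 8 cases the difference between Helicon 4 and Helicon 4-neg at 3 µM changed from one time to the next, by an interaction term in the limma fit of all 63 libraries with adjustment over all genes. From 6 to 24 h the change was 1.54 on the log2 scale for TMSB4X (adjusted p = 1.61e-07), -0.97 for COTL1 (adjusted p = 1.4e-17), 0.22 for ACTG1 (adjusted p = 0.003) and 0.43 for VCL (adjusted p = 6.06e-04). The ACTG1 value was 0.18 with median centring, where it missed the threshold (adjusted p = 0.0527).

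From 24 to 48 h the change was 1.68 for TMSB4X (adjusted p = 6.31e-08), 0.37 for TMSB10 (adjusted p = 0.011), -0.26 for COTL1 (adjusted p = 0.00353) and 0.17 for ACTG1 (adjusted p = 0.0435). The ACTG1 value was 0.18 and not called with median centring (adjusted p = 0.093). It also lost its call without any one of 8 libraries: Helicon 4 3 µM 24 h replicate 1, the 3 replicates of Helicon 4 at 3 µM and 48 h, the 3 of Helicon 4-neg at 3 µM and 24 h, and Helicon 4-neg 3 µM 48 h replicate 3 (0.11 to 0.18, adjusted p from 0.0556 to 0.199). The TMSB10 value was 0.31 (adjusted p = 0.0581) without Helicon 4 3 µM 24 h replicate 1. The COTL1 value was -0.043 without the COL1A2 libraries, a fit that keeps 1 library of each compound at 3 µM and 48 h. Leaving out the libraries that stood apart gave 1.59, 0.32, -0.33 and 0.11 for these 4 genes, and the last was no longer called (adjusted p = 0.127). In the same setting ACTB, at -0.26 (adjusted p = 0.00768), and CFL1, at -0.14 (adjusted p = 0.0324), were called.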

How the results depend on the processing

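Of 240 tests of the 8 genes, 98 were called, 56 of these in every alternative, and 105 of the uncalled stayed uncalled in every alternative; no call changed sign. The dose step from 1 to 3 µM of Helicon 4 called 7 in all, 12 without the libraries that stood apart and 11 with 1 fit of all 63 libraries. Neither library that stood apart is in this step, so its fitted differences were unaltered (ACTB at 48 h, -0.23 with and without them). What differed was the spread shared by the groups of a fit and the set of genes tested. Helicon 4-neg against DMSO called 23, and 12 without the libraries with COL1A2 above 5. Leaving out 1 library gave 20 to 24 calls between the compounds (23 with all), 23 to 27 for Helicon 4 against DMSO (26), 17 to 26 for Helicon 4-neg against DMSO (23), 5 to 7 for the dose step (7), 10 to 11 for DMSO between times (11) and 6 to 8 for the changes of the compound difference (8). For the totals above, the shares of all genes called in the same alternative fits were not computed. The cause of the other shifts was not tested. Replicate numbers did not pair the libraries: same-numbered libraries had mean correlations of -0.0513, -0.0218 and -0.0471 at 6, 24 and 48 h. With the replicate number as a block, 2 calls were lost, COTL1 with Helicon 4-neg at 10 µM and 48 h (adjusted p = 0.0612) and VCL with Helicon 4-neg at 10 µM and 6 h (adjusted p = 0.0578), both against DMSO, so the totals were 21 for that family and 23, 26, 7, 11 and 8 for the others. With 3 libraries a group, the simulated recovery of changes of log2 0.5 was 66, 63 and 68% at 6, 24 and 48 h. That was in a simpler setting than the data, so small changes can be missed.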
